A study of Mus musculus with 8 samples.

Results

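Chemokines are small secreted proteins that draw leukocytes along a gradient by binding G protein-coupled receptors. Ccl3, Ccl4 and Ccl5 encode CC chemokines that attract monocytes, T cells and NK cells. Cxcl2 and Cxcl3 encode CXC chemokines that recruit neutrophils through Cxcr2. These 5 genes are described here in sorted ILC2 of the thymus (group 2 innate lymphoid cells), which reside in tissues and are known for type 2 cytokines. They were picked by symbol with earlier differences between Il25 KO and wild-type cells already known, so their differences between genotypes are descriptions and carry no test. All 5 were among the 10913 genes of the count table, and 4 of the 5 passed the filter on low counts. Cxcl3 did not pass.

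The samples were 4 Il25 KO and 4 WT libraries of ILC2 sorted from enzymatically dissociated thymus of young male mice, age-matched and untreated. IL-25, a tuft cell cytokine, activates ILC2, and Il25 itself was not analysed here. MARS-seq reads the 3′ end of each captured mRNA and counts molecules by their unique molecular identifiers (UMIs), so a count does not scale with transcript length. The labels do not say whether each library came from a separate animal, so p-values measure only the spread between these samples, which may be technical. The libraries held 1915365 to 3250718 UMIs. Levels are given in CPM, UMI counts per 1000000 of the library size adjusted by TMM. All 13 genes of an ILC2 list were present, and their summed level was 2050.0 to 2199 CPM in the KO libraries and 2017 to 2157 CPM in WT libraries. Thy1, the largest part of that sum, averaged 1206 ± 55.0 CPM over KO libraries against 1347 ± 119 CPM over WT libraries (SD, n = 4 each). Of the 9 ILC2 genes tested, 8 had a log2 fold change above 0, and only Thy1 lay below 0. Cd69 was the 1 gene called, as higher in KO, by 0.72 ± 0.12 (SE, edgeR adjusted p = 0.0134). The similar sums therefore do not show that each ILC2 gene was level. Of 14 thymocyte and T cell genes 13 were present. Their summed level overlapped, at 3664 to 4195 CPM in the KO libraries and 3400 to 4523 CPM in the WT libraries. The overlap came from WT replicate 1 alone, and the other WT libraries stood at 3400 to 3524 CPM, below every KO library. Of the 11 tested, 3 had a log2 fold change above 0 and 8 below, with 0 called, and the most abundant, Dntt, stood at 2316 ± 174 CPM in the KO libraries and 1941 ± 124 CPM in the WT libraries (SD, n = 4 each). WT replicate 1 stood apart from the other libraries in the T cell genes Cd4, Cd8a and Cd8b1 and in MHC class II genes, so values are also given without it. It did not stand apart in Dntt, Lck and Cd3g, the most abundant thymocyte and T cell genes, at 0.83, 0.93 and 0.85 of the highest other library. In bulk RNA, fewer cells of a type and less RNA per cell cannot be told apart.

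The 5 genes lie in 2 clusters, which is a feature of their positions and not of the counts. In GENCODE M21 (GRCm38), Ccl5 lies on chromosome 11 from 83525778 to 83530518 and Ccl3 from 83647844 to 83649355, both on the minus strand. Ccl4 lies on the plus strand from 83662584 to 83664683, 13.2 kb from Ccl3. Cxcl3 lies on chromosome 5 from 90786103 to 90789600 and Cxcl2 from 90903871 to 90905938, both on the plus strand, with Cxcl1 10.8 kb before Cxcl2. RefSeq gives Ccl4 an earlier start, so that it overlaps Ccl3 by 755 bases on the other strand. The 3′ ends of both genes lie outside this overlap. Ccl3 and Ccl4 shared 68.4% of their aligned coding bases, and Cxcl2 and Cxcl3 shared 89.8%. Of the 30-base words of the Cxcl2 transcript 7.59% also occurred in Cxcl3, but 0 of these began in the last 500 bases, where 3′ libraries take most reads. Ccl3, Ccl4 and Ccl5 shared 0 such words with transcripts of other genes.

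Promoters are shown because Ccl3, Cxcl2 and Cxcl3 differed widely in level. RefSeq promoter sequences (GRCm38.p6) were given for Ccl3, Cxcl2 and Cxcl3. The 160 bases just before the start of transcription are shown at chr5:90903739-90903898 for Cxcl2 and chr5:90785941-90786100 for Cxcl3, both on the plus strand, and at chr11:83649379-83649538 on the minus strand for Ccl3. Capitals mark matches to the kappaB consensus, bound by NF-kB, to the NFAT core TGGAAA and to the TATA box TATAAA.
Cxcl2: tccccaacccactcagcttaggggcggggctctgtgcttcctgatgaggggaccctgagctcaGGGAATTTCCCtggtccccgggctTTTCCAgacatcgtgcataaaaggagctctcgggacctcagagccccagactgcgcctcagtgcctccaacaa
Cxcl3: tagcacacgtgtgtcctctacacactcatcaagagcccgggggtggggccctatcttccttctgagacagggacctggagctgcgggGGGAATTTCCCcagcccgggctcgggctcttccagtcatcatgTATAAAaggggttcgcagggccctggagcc
Ccl3: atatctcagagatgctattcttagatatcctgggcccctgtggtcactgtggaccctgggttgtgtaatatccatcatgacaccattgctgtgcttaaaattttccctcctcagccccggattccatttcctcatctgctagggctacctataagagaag
Cxcl2 and Cxcl3 carry the same 11 letters GGGAATTTCCC, which match the kappaB consensus on both strands in 2 overlapping places. Of 32851 promoter windows of 300 bases, searched on both strands, 8.46% held a kappaB match, 21.4% the NFAT core and 13.6% the TATA box. The AP-1 motif TGANTCA, found in 7.81% of windows, and the CRE core TGACGT, found in 7.51%, had 0 matches in the 3 windows. The Ccl3 window held 0 matches to any of the motifs searched, which says only that these letters are not there.

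Many chemokine transcripts are short-lived because proteins of the Zfp36 family bind AU-rich elements in the 3′ untranslated region (UTR) and recruit the deadenylation machinery. The core of such an element, TATTTAT in the DNA sense, was counted with overlaps on the sense strand of GENCODE M21 transcripts. The Cxcl2 3′ UTR of 734 bases held 7 copies. Only 0.101% of 2972 genes with a 3′ UTR within 25% of that length held as many, and 18.9% held any. Cxcl1 held 6 copies in 592 bases, Cxcl3 2 in 645, Ccl3 1 in 409, Ccl4 1 in 302 and Ccl5 0 in 199 bases. Of genes with a 3′ UTR of like length, 9.97% held any copy at the length of Ccl3 and 7.83% at that of Ccl4. The 30-base windows with the most copies are shown, because the genes differ in the number of these elements. Capitals mark TATTTAT, and all windows lie in the last exon (GRCm38, on the plus strand at chr5:90905325-90905354, chr5:90787866-90787895 and chr11:83664541-83664570 and on the minus strand at chr11:83648003-83648032).
Cxcl2: ctTATTTATTTATctatgTATTTATTTATt
Cxcl3: attatcagttgtTATTTATtgaaatggtct
Ccl4: tattatttctatTATTTATgttttagttat
Ccl3: tgtatttgtgacTATTTATtctgaaagact
The Cxcl2 window holds 4 copies, in 2 overlapping pairs, and the other windows 1 each. A match is a description of the letters, and none of these data measured decay.

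Ccl4 was the most abundant of the 5 transcripts in all 8 libraries and ranked 1011 of 9016 tested genes by mean level. It was counted 537, 421, 577 and 490 times in KO replicates 1 to 4, and 350, 256, 299 and 405 times in WT replicates 1 to 4. These counts correspond to 201, 219, 187 and 205 CPM in the KO libraries and to 151, 101, 102 and 129 CPM in the WT libraries. All 4 KO values exceeded all 4 WT values, and the highest WT value belonged to replicate 1. The mean level was 203 ± 13.2 CPM in the KO libraries and 120 ± 23.8 CPM in the WT libraries (SD, n = 4 each), giving a log2 fold change of 0.75 ± 0.13 (SE). Without WT replicate 1 the log2 fold change was 0.87 ± 0.12 (SE).

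Ccl3, the neighbour of Ccl4 in the genome and an attractant of monocytes and T cells, was far less abundant. It was counted 21, 15, 23 and 16 times in KO replicates 1 to 4 and 6, 13, 8 and 10 times in WT replicates 1 to 4. The corresponding levels were 7.86, 7.79, 7.44 and 6.70 CPM in the KO libraries and 2.58, 5.14, 2.72 and 3.18 CPM in the WT libraries. The groups did not overlap, and WT replicate 2 came closest to the KO libraries. The mean was 7.45 ± 0.53 CPM in the KO libraries and 3.40 ± 1.18 CPM in the WT libraries (SD, n = 4 each), giving a log2 fold change of 1.13 ± 0.29 (SE). It was 1.03 ± 0.31 (SE) without WT replicate 1. With so few UMIs, counting error alone gives a coefficient of variation of 23.5% in KO and 34.2% in WT.

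Cxcl2, a neutrophil attractant made rapidly by stimulated cells, had the largest within-genotype SD of log2 CPM among the tested members. It was counted 113, 58, 61 and 38 times in KO replicates 1 to 4, or 42.3, 30.1, 19.7 and 15.9 CPM. In WT replicates 1 to 4 it was counted 34, 9, 31 and 54 times, or 14.6, 3.56, 10.5 and 17.2 CPM. The groups overlapped, because KO replicate 4 lay below WT replicate 4. The mean was 27.0 ± 11.8 CPM in the KO libraries and 11.5 ± 5.94 CPM in the WT libraries (SD, n = 4 each), giving a log2 fold change of 1.21 ± 0.33 (SE). It was 1.32 ± 0.35 (SE) without WT replicate 1 and 0.89 ± 0.33 (SE) without KO replicate 1, which held the highest value.

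Ccl5, which effector T cells and NK cells make in large amounts, was not higher in KO. It was counted 64, 40, 38 and 59 times in KO replicates 1 to 4, or 24.0, 20.8, 12.3 and 24.7 CPM. In WT replicates 1 to 4 it was counted 120, 51, 57 and 56 times, or 51.6, 20.2, 19.4 and 17.8 CPM. The 3 other WT libraries lay within the KO range, and WT replicate 1 lay above all. The mean was 20.4 ± 5.68 CPM in the KO libraries and 27.2 ± 16.3 CPM in the WT libraries (SD, n = 4 each). The log2 fold change was -0.40 ± 0.30 (SE) with all 8 libraries and 0.08 ± 0.22 (SE) without WT replicate 1, so its sign depended on that library.

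Cxcl3, the closest relative of Cxcl2, was nearly absent from the counts. KO replicates 1 to 4 held 1, 0, 2 and 1 UMIs and WT replicates 1 to 4 held 1, 0, 0 and 8. The 8 UMIs of WT replicate 4 made up most of the WT sum. The sums of 4 UMIs in KO and 9 in WT gave a depth-scaled ratio of 0.483 with an exact 95% interval of 0.109 to 1.73, which covers counting error only. No gene of the count table had a highest count under 6, so Cxcl3 is listed only through WT replicate 4. Neither the ratio nor the interval allows for that. Without WT replicate 4 the log2 ratio of KO over WT was 1.63, against -1.05 with all libraries, so no direction was detectable at this depth.

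**Figure D1:**
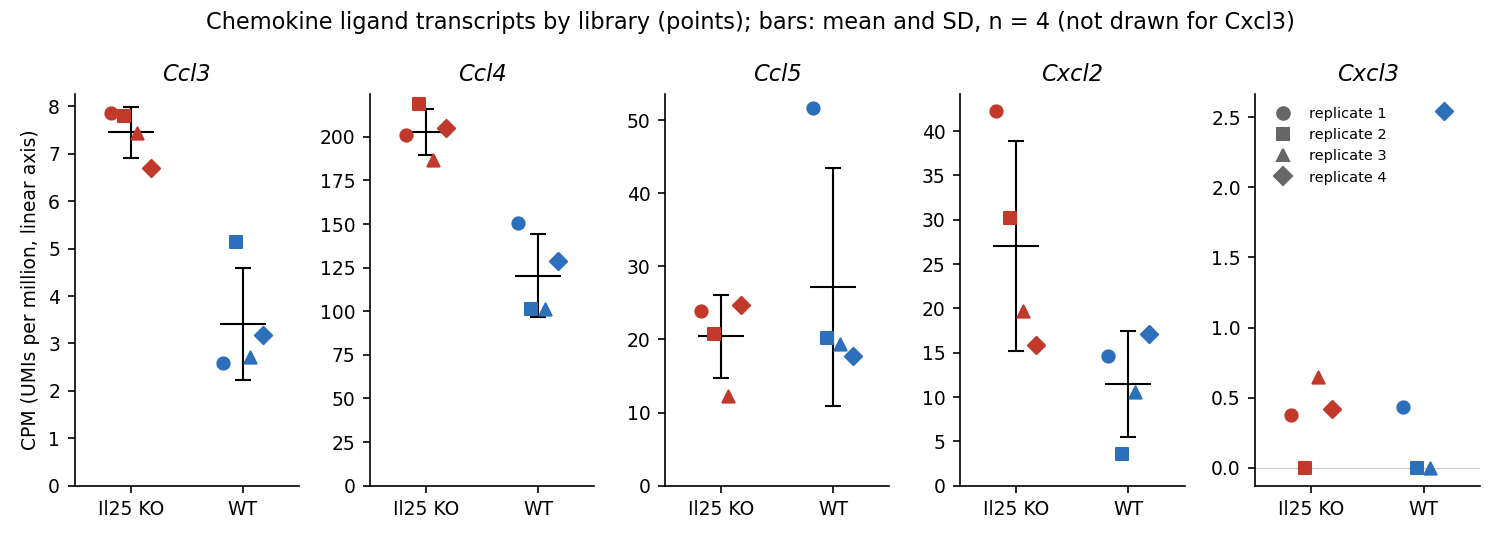
Level of each chemokine ligand transcript (CPM, linear axes that differ between panels) in the 4 Il25 KO libraries (left, red) and the 4 WT libraries (right, blue), with marker shapes for replicates and bars for mean and SD except for Cxcl3. Ccl3 and Ccl4 do not overlap between the genotypes, while Ccl5 is set apart in WT replicate 1 at 51.6 CPM and Cxcl3 in WT replicate 4 at 2.54 CPM.

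Of the 4 members past the filter, only Ccl4 was among the genes called by edgeR's quasi-likelihood test, and 0.211% of all 9016 tested genes were called, 0.177% as higher and 0.0333% as lower in KO. Ccl3 and Ccl4 had every KO library above every WT library, as did 2.92% of tested genes, while 2.31% had every KO library below every WT library. The members were chosen with this contrast known, so nothing is read from either count. The median log2 fold change of all tested genes was -0.0022. Normalization by the median of ratios or by library size alone, no filter, DESeq2, limma-voom and a block for the replicate number gave log2 fold changes of 1.12 to 1.16 for Ccl3, 0.75 to 0.78 for Ccl4, 1.18 to 1.29 for Cxcl2 and -0.42 to -0.30 for Ccl5.

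**Figure D2:**
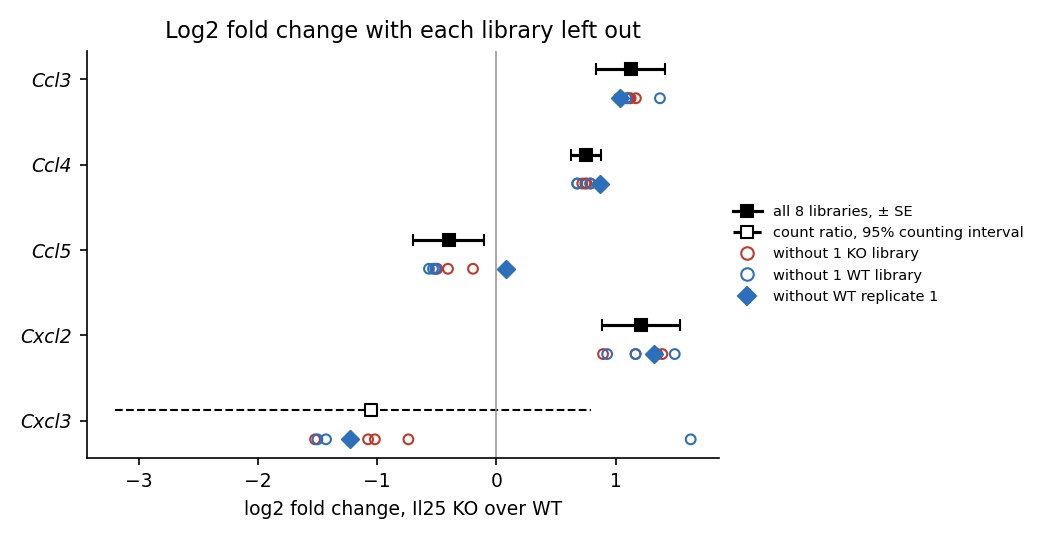
Log2 fold change of Il25 KO over WT for each gene (x axis) with all 8 libraries (squares, ± SE, or a 95% counting interval for Cxcl3), and with 1 library left out at a time (circles, diamond for WT replicate 1). Leaving out 1 library kept Ccl3 between 1.03 and 1.37, Ccl4 between 0.68 and 0.87 and Cxcl2 between 0.89 and 1.5, while Ccl5 ranged from -0.57 to 0.08 and Cxcl3 from -1.52 to 1.63.

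Genes of cell isolation stress, which the enzymatic dissociation of tissue can induce, mostly stood higher in KO, as did the means of Ccl3, Ccl4 and Cxcl2. Of 16 such genes, immediate early and heat shock genes, all were tested, 5 rose and 0 fell in KO by edgeR's test, where 0.177% of all tested genes were called higher, and 15 had a log2 fold change above 0. The 5 were the transcription factor genes Fos, Jun, Junb and Egr1 and the phosphatase gene Dusp1, of which all but Dusp1 are named after their values were seen. Dusp1 stood at 229 ± 25.7 CPM in the KO libraries and 128 ± 33.4 CPM in the WT libraries (SD, n = 4 each). That is 0.84 ± 0.14 (SE) on the log2 scale, at an edgeR adjusted p of 0.0134. The summed level of the 16 genes was 27658 to 36041 CPM in the KO libraries and 17627 to 26490.0 CPM in WT libraries, with no overlap. Its largest parts came from the heat shock genes Hspa1b, Hspa1a and Hspa8, which were not among the 5 called. Their log2 fold changes were 0.61 ± 0.16, 0.57 ± 0.16 and 0.31 ± 0.12 (SE, edgeR adjusted p = 0.153, 0.196 and 0.324). Hspa1b and Hspa1a each overlapped between the genotypes, while Hspa8 did not. The sum is thus no measure of the 5 called genes. The highest WT sum was that of replicate 1. That library held the lowest Ccl3 and the highest Ccl4 of the WT libraries, at 2.58 and 151 CPM. The part of the 16 genes in the chemokine differences was not tested. Of 15 genes of NK cells, ILC1 and cytotoxic T cells, which are common sources of Ccl3, Ccl4 and Ccl5, 8 were present. Their summed level was lower in KO, at 853 to 979 CPM, against 1033 to 1202 CPM in the WT libraries, with 0 members called in either direction, and its part was not tested either. The other 7, among them Ncr1, Prf1 and Eomes, were not analysed here. Of the 7 tested, 3 had a log2 fold change above 0 and 4 below. Gzma, which encodes a granule protease, made up the largest part of that sum at 505 ± 82.9 CPM in the KO libraries and 626 ± 75.7 CPM in the WT libraries (SD, n = 4 each). Nkg7, a granule membrane gene, was the next in level and stood the other way. It was at 220 ± 24.8 CPM in the KO libraries and 194 ± 28.4 CPM in the WT libraries. Cd8a and Cd8b1 are also in that sum. They stood at 81.7 and 357 CPM in WT replicate 1, and at most at 12.3 and 65.2 CPM in any other library. The sum of WT replicate 1, the highest at 1202 CPM, lay above the KO libraries only through these genes.

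The spread between libraries of the same genotype differed among the members. It was not used to choose them, although the deviation of WT replicate 1 in Ccl5 was known. Within genotypes the SD of log2 CPM was 0.78 for Cxcl2, larger than in 99.5% of the 1140 tested genes whose mean level was at most 25% above or 20% below its own, and their median SD was 0.25. For Ccl5 it was 0.59, larger than in 99.0% of 1201 genes of like level, with WT replicate 1 among its values. Ccl4 had an SD of 0.21, larger than 77.6% of 509 genes of like level. Ccl3 had an SD of 0.27, larger than only 15.6% of 780 genes of like level. In the KO libraries the coefficient of variation of Ccl4 was 6.49%, where counting error alone gives 4.48%. That of Cxcl2 was 43.8% in KO and 51.8% in WT, where counting error alone gives 13.1% and 21.9%. That of Ccl5 was 27.8% in KO and 59.8% in WT, where counting error alone gives 14.5% and 12.6%. That of Ccl3 was 7.17% in KO and 34.8% in WT, where counting error alone gives 23.5% and 34.2%. The KO values of Ccl3 thus lay closer together than counting error alone would give. Its small spread is therefore not read as a trait of the gene.

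**Figure D3:**
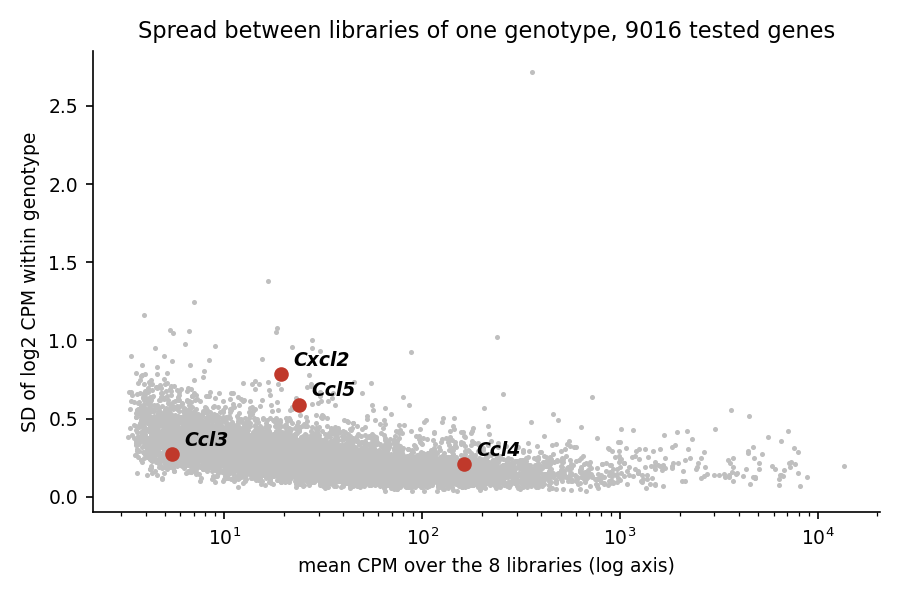
SD of log2 CPM between libraries of the same genotype (y axis) against mean CPM over the 8 libraries (x axis, log scale) for the 9016 tested genes (grey), with the 4 tested chemokine ligands in red. Cxcl2 at 0.78 and Ccl5 at 0.59 lie at the upper edge of the genes of their level, and Ccl3 at 0.27 lies low for its level.

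Ccl4 had the highest and Cxcl3 the lowest level in all 8 libraries. Cxcl2 stood above Ccl5 in KO replicates 1 to 3 and below it in the 5 other libraries. In the KO libraries the ranges of Ccl5 and Cxcl2 overlapped, at 12.3 to 24.7 and 15.9 to 42.3 CPM. In the WT libraries they did not overlap, at 17.8 to 51.6 CPM for Ccl5 and 3.56 to 17.2 CPM for Cxcl2. The lowest WT level of Ccl5 and the highest of Cxcl2 were both in replicate 4, at 56 and 54 UMIs. That gap is within counting error. Ccl3 was the fourth in every library but WT replicate 2, where its 13 UMIs exceeded the 9 of Cxcl2. The ratio of Ccl4 to Ccl3 UMIs was 25.6, 28.1, 25.1 and 30.6 in KO replicates 1 to 4 and 58.3, 19.7, 37.4 and 40.5 in WT replicates 1 to 4. The KO ratios thus lay within the wider range of the WT ratios, but only through WT replicate 2. Its ratio lay below every KO ratio, and those of the other WT libraries lay above.

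Among the chemokine ligand genes of the table, Ccl4 took the largest share. The 5 members and 8 other ligand genes held 741 to 1054 UMIs in each KO library and 614 to 923 in each WT library. Ccl4 made up 56.3 ± 3.68% of them in KO and 41.8 ± 2.5% in WT (SD, n = 4 each). Cxcl10, an interferon-induced attractant of T cells, followed with 16.0 ± 2.0% in KO and 25.3 ± 4.77% in WT. Cxcl2 held 7.33 ± 2.63% in KO and 3.88 ± 1.81% in WT, and Ccl5 5.60 ± 1.32% in KO and 9.14 ± 3.93% in WT. Such shares are tied to each other, so a larger share of Ccl4 lowers those of the rest.

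**Figure D4:**
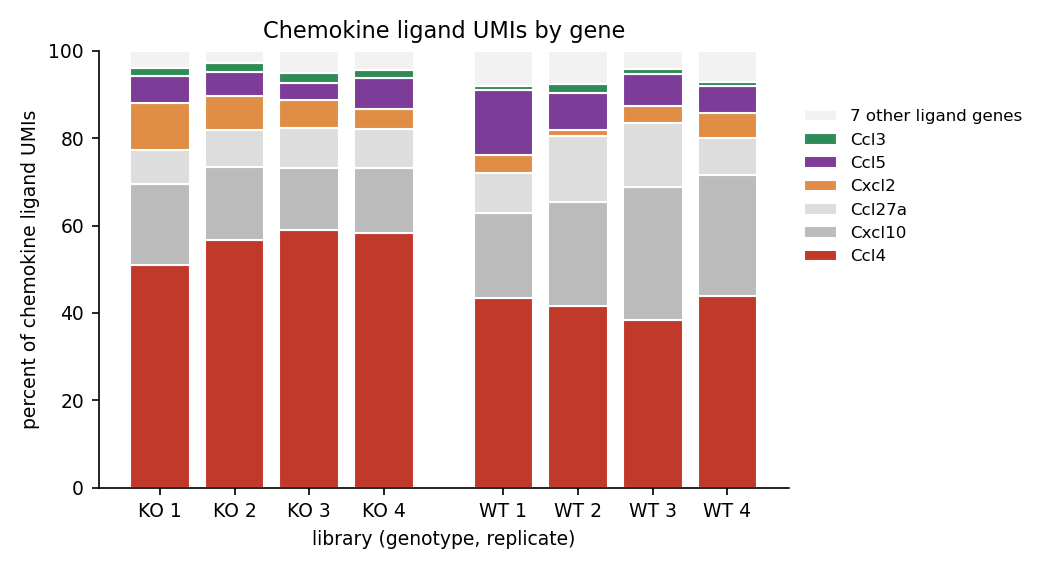
Percent of all chemokine ligand UMIs (y axis) taken by each ligand gene in the 4 KO libraries (left) and the 4 WT libraries (right), with 7 rarer ligand genes pooled. Ccl4, at the base of each bar, holds 50.9 to 59.0% in KO libraries and 38.3 to 43.9% in WT libraries.

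None of the other chemokine ligand genes that could be tested was called. Of 33 such genes in a list, 8 were in the table and 4 were tested, and edgeR called 0 of the 4, with 0 at an unadjusted p under 0.05 and 0 called by DESeq2. The median of their log2 fold changes was 0.07. Cxcl10 stood at 58.3 ± 12.6 CPM in the KO libraries and 71.6 ± 11.4 CPM in the WT libraries (SD, n = 4 each), giving a log2 fold change of -0.31 ± 0.15 (SE, edgeR adjusted p = 0.469). Ccl25, which draws thymocyte progenitors through Ccr9, stood at 7.55 ± 1.20 CPM in the KO libraries and 5.34 ± 1.96 CPM in the WT libraries, and its log2 fold change of 0.46 ± 0.28 (SE) had an edgeR adjusted p of 0.585. Xcl1 and Ccl27a showed log2 fold changes of 0.22 ± 0.33 and -0.08 ± 0.15 (SE), and edgeR gave adjusted p of 0.86 and 0.895. Cxcl1, the neighbour of Cxcl2 and another ligand of Cxcr2, was below the filter. It had 2, 1, 1 and 4 UMIs in KO replicates 1 to 4 and 11, 23, 1 and 7 in WT replicates 1 to 4. Cxcl2 outnumbered Cxcl1 in 7 of the 8 libraries, and WT replicate 2, with the fewest Cxcl2 UMIs, had the most of Cxcl1.

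Few chemokine receptor genes passed the filter on low counts. Cxcr2, the receptor of Cxcl2 and Cxcl3, was not analysed here. Of 24 chemokine receptor genes listed, 6 were tested and edgeR called 0, as did DESeq2. An unadjusted p under 0.05 was reached by 2 of the 6 and by 977 of all 9016 tested genes. Cxcr4, the receptor for Cxcl12 and a retention signal for lymphocytes, had 57.3 ± 14.1 CPM in the KO libraries and 42.3 ± 5.55 CPM in the WT libraries, a log2 fold change of 0.45 ± 0.16 (SE, edgeR adjusted p = 0.285). Ccr7, the lymph node homing receptor, had a log2 fold change of -0.86 ± 0.40 (SE, edgeR adjusted p = 0.454), which was -0.11 ± 0.26 (SE) without WT replicate 1. Ccrl2 and Ccr2 showed log2 fold changes of 0.24 ± 0.14 and -0.55 ± 0.33 (SE), and edgeR gave adjusted p of 0.561 and 0.572.

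Downstream of the receptors, 1 of 20 tested signalling genes rose and 0 fell, against 0.211% called over all genes. It was Rgs1, which encodes a GTPase-activating protein that dampens chemokine receptor signals, with 54.9 ± 7.64 CPM in the KO libraries and 30.8 ± 6.0 CPM in the WT libraries (SD, n = 4 each). KO exceeded WT by 0.84 ± 0.16 (SE) on the log2 scale, at an edgeR adjusted p of 0.0245, and the groups did not overlap. The edgeR adjusted p was 0.0638 without KO replicate 1, 0.0975 without KO replicate 3, 0.0885 without WT replicate 2 and 0.0849 without WT replicate 4. Over 14 alternatives the adjusted p ranged from 0.00173, by DESeq2, to 0.0975, by edgeR. Gnb1, a G protein subunit, had a log2 fold change of 0.46 ± 0.15 (SE, edgeR adjusted p = 0.253). Rgs10 and Rgs14 had -0.55 ± 0.19 and -0.56 ± 0.25 (SE), and edgeR gave adjusted p of 0.281 and 0.428, and without WT replicate 1 both lay nearer 0, at -0.25 ± 0.13 and -0.22 ± 0.20 (SE).

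Regulators of mRNA decay, which act through AU-rich elements, stem-loops or deadenylation, were not called by edgeR. Of 13 tested genes edgeR called 0 in either direction, and DESeq2 called 1. An unadjusted p under 0.05 was reached by 7 of the 13, against 977 of all 9016 tested genes. Zfp36, which encodes the AU-rich element binding protein tristetraprolin, stood at 122 ± 25.9 CPM in the KO libraries and 69.5 ± 23.4 CPM in the WT libraries (SD, n = 4 each). Its log2 fold change was 0.83 ± 0.18 (SE) with an edgeR adjusted p of 0.0712, and the adjusted p ranged from 0.00312 to 0.292 over 14 alternatives. WT replicate 1 held 102 CPM, the highest WT value, and without it the log2 fold change was 1.07 ± 0.16 (SE) at an edgeR adjusted p of 0.00312. Without KO replicate 2 it was 0.95 ± 0.18 (SE) at an edgeR adjusted p of 0.0161. Zfp36l2, a relative of Zfp36, had a log2 fold change of 0.64 ± 0.21, Zc3h12a, an endonuclease that cleaves stem-loops in inflammatory transcripts, 0.38 ± 0.15, and Rc3h2, which binds stem-loops, -0.56 ± 0.23 (SE). Their edgeR adjusted p were 0.263, 0.355 and 0.381.

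The genes whose profile over the 8 libraries was nearest to each member were found by the root mean square difference of log2 CPM after centring each gene on its mean. For Ccl4 these were Dusp1, Sema4c and Sh2b2, at 0.13, 0.15 and 0.16, where the median over tested genes was 0.48. For Cxcl2 they were Areg, Maff and Kif24, at 0.51, 0.53 and 0.55, with a median of 0.95. For Ccl3 they were Tmem170b, Atxn1 and Hoxb4, at 0.24, 0.24 and 0.26, with a median of 0.60. For Ccl5 they were Nyap1, Brdt and Ccno, at 0.22, 0.22 and 0.24, with a median of 0.58. Among the members, Ccl3 and Ccl4 were the nearest pair, at 0.38, where Ccl4 ranked 80 from Ccl3 and Ccl3 ranked 1404 from Ccl4. Ccl4 was the member nearest to Cxcl2, at 0.64, and 25 tested genes were nearer. Seen from Ccl4, Cxcl2 ranked only 8030. The distances include the difference between genotypes, and every profile rests on the same 8 libraries.

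WT replicate 1 stood apart in more than Ccl5. The T cell and MHC class II genes given here were named because that library was high in them. Cd8b1, a chain of the CD8 coreceptor, stood at 33.7 to 48.1 CPM in KO, at 357 CPM in WT replicate 1 and at 55.7 to 65.2 CPM in the 3 other WT libraries. Cd4 stood at 1.56 to 6.47 CPM in KO, 78.7 CPM in WT replicate 1 and 0.79 to 4.42 CPM in the other WT libraries. The MHC class II gene H2-Aa stood at 14.6 to 17.7 CPM in KO, 110 CPM in WT replicate 1 and 11.9 to 18.4 CPM in the other WT libraries. Among chemokine system genes, Ccl22, made by dendritic cells, had 0 UMIs in each KO library, 15 in WT replicate 1 and 0 in the other WT libraries. Cxcl16 had at most 1 UMI in a KO library, 11 in WT replicate 1 and 1 in each other WT library. No gene of the count table had a highest count under 6, so Ccl22 and Cxcl16 are listed only through WT replicate 1. Their counts there are a description and no support. Ccr7 stood at 6.15 to 11.95 CPM in the KO libraries, 36.6 CPM in WT replicate 1 and 8.49 to 10.3 CPM in the other WT libraries. The summed level of 12 macrophage, monocyte and dendritic cell genes was 131 to 148 CPM in KO, 495 CPM in WT replicate 1 and 117 to 141 CPM in the other WT libraries. Their part in the Ccl5 value of that library was not tested.

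**Figure D5:**
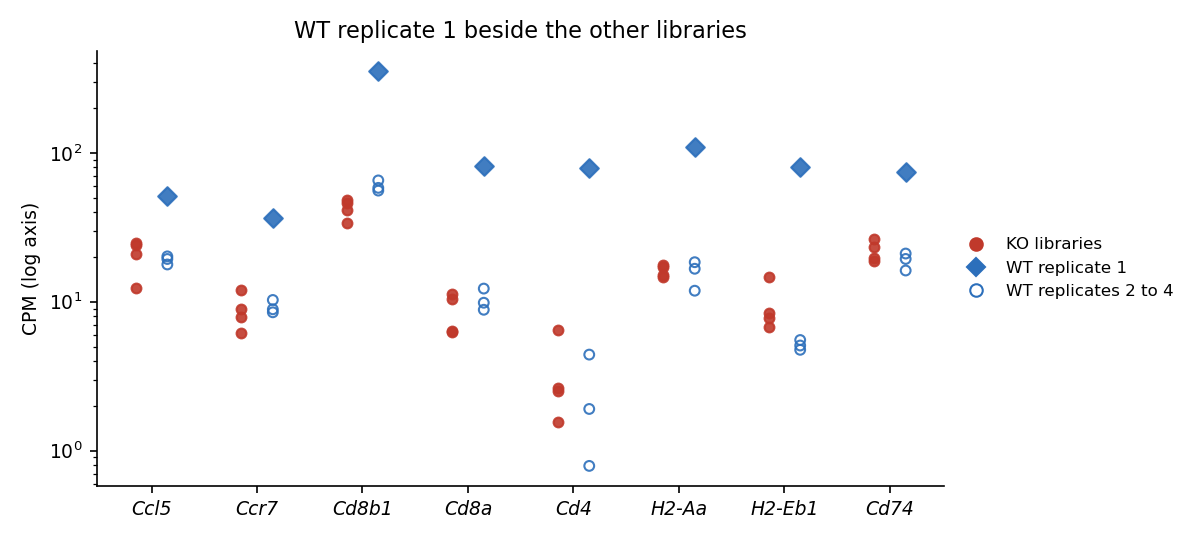
Level (CPM, log axis) of Ccl5, Ccr7 and 6 T cell and MHC class II genes in the KO libraries (red), WT replicate 1 (blue diamonds) and WT replicates 2 to 4 (open circles). WT replicate 1 lies above every other library in all 8 genes, at 51.6 CPM for Ccl5 and 357 CPM for Cd8b1. The T cell and MHC class II genes were chosen because that library was high in them, and its Ccl5 value was known, so this is a description.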

How the data were processed

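RNA of thymic ILC2 was counted in 8 libraries, 4 Il25 KO and 4 WT. Per the submitters' processing notes, the tools included STAR 2.5.2b, HTSeq and cutadapt and the build was mm10; annotation and strand setting were not given in the sources used here. The raw UMI counts deposited by the authors, per the file headers, were the only values tested. The deposited normalized signal values equal each count divided by a constant per library. The regularized log2 values, log2 fold changes of WT over KO and p-values deposited by the authors were not used.

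In R 4.3.3 with edgeR 4.0.16, filterByExpr (minimum count 10) kept 9016 of 10913 genes, TMM scaled the libraries, and the quasi-likelihood model of all 8 libraries had genotype alone as its term. Calls are Benjamini-Hochberg adjusted p under 0.05, and SEs derive from the F statistic. Alternatives were other normalizations, no filter, DESeq2 1.42.0, limma-voom 3.58.1, a replicate block, and leaving out each library.

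The members and lists were chosen with earlier results of these data known. Named genes are the members, the called and lowest-p genes (up to 4) of each of 4 chemokine lists, marker genes of highest level or most raised in WT replicate 1, and the 3 nearest profiles per member. Cxcl1, Ccl22 and Cxcl16 were named after their values were seen. Some genes that the rule also names are not reported here.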

Additional observations from a re-analysis of the deposited data

Results flagged for a closer look

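A library was singled out where its gap to the nearest of its group, divided by the range of the group, passed Dixon's 95% critical value for 4 samples. Of 102 groups checked over 51 genes, 16 passed. Chance alone flags about 1 in 20 groups, but the genes include markers chosen because WT replicate 1 was high in them, so the number that passed is a description and no test. WT replicate 1 was the highest WT library in Ccl5, with a ratio of 0.93 (51.6 CPM against 17.8 to 20.2), and in Ccr7 with 0.936. The deviation in Ccl5 was known when the genes were chosen, so its ratio restates it. The T cell genes Cd8b1, Cd8a and Cd4 were also highest there, with 0.968, 0.953 and 0.953, as were the MHC class II genes H2-Ab1, H2-Aa, Cd74 and H2-Eb1, with 0.843, 0.933, 0.916 and 0.99. WT replicate 1 was the lowest WT library in Zc3h12a, with 0.834.

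WT replicate 4 was the highest WT library in Cxcl3, with a ratio of 0.831 (2.54 CPM against 0 to 0.43), and in Ccl25, with 0.841. It was the lowest in Rgs1, with 0.855, and in Ctsw, with 0.856. Among KO libraries, replicate 4 was the highest in Rgs10, with 0.949, and replicate 2 in Epcam, with 0.833.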

How the results depend on the processing

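The log2 fold changes of Ccl3, Ccl4 and Cxcl2 stayed above 0 under every alternative run, and those of the 4 tested members moved by less than 1 SD between replicates. Ccl5 changed sign without WT replicate 1, and leaving out each library gave -0.57 to 0.08. Cxcl3 gave -1.52 to 1.63 and turned positive without WT replicate 4, which holds 8 of its 9 WT UMIs. Cxcl3 had no value under DESeq2, limma-voom, the replicate block or no filter, because it was a ratio of summed counts and not a fit. The 19 genes called became 45 by DESeq2 and 60 with the replicate block, and 1 to 39 on leaving out each library. Removing WT replicate 2 left 1 call, removing WT replicate 4 left 4, and removing KO replicate 2 gave 39. The mRNA decay list had 1 call in place of 0 with library size alone, by DESeq2 and with the replicate block, and gave 0 to 1 on leaving out each library, as did the receptor signalling list. The other ligand and receptor lists had 0 calls throughout. The cause of these changes was not tested. Same-numbered libraries had correlations of deviations of 0.138, -0.006, -0.00025 and 0.0887, so the numbers were not taken to pair the samples. With the replicate block the log2 fold changes were 1.14 for Ccl3, 0.77 for Ccl4, -0.35 for Ccl5 and 1.18 for Cxcl2. Depth limits Ccl3 and Cxcl3 most.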
